A study of Mus musculus with 4 samples.

Results

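The mRNA levels of 41 genes of the unfolded protein response and of the wider chaperone network were examined in bronchoalveolar lavage fluid (BALF) cells of bleomycin-administered mice, using 4 one-color microarrays. The members were chosen with earlier results of these data known, so the list has no test of its own. Of the members, 32 act in or for the endoplasmic reticulum (ER), 7 are cytosolic heat shock genes and 2 form the mitochondrial chaperonin. Probes were assigned to members through their transcript accession, and the brightest probe of each gene is reported. A probe was found for 40 of the 41 members, out of 20832 genes named on the array, and no probe was matched to Hspa1b.

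BALF cells, which are labelled as alveolar macrophages, were obtained on day 22 from mice given bleomycin intraperitoneally at 0.035 U/g at 2 injections a week, a treatment that injures the lung and leads to fibrosis. Wild-type mice gave 2 arrays and S1pr2-/- mice gave the other 2. The latter lack the sphingosine-1-phosphate receptor S1PR2 in the whole body. Both genotypes were young adult littermates from heterozygous breeding on a 129Ola;C57BL/6J mixed background backcrossed once to C57BL/6J. Arrays of saline-administered mice were not analysed here, so the comparison is between genotypes under bleomycin and does not show the effect of bleomycin. The methods describe 2 independent RNA samples per genotype and do not say for the arrays how many mice gave each sample. The p-values measure only the spread between these arrays.

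Values are log2 of the background-corrected signal over the 75th percentile of the array, so that 0 is the 75th percentile. A log2 difference is the mean of the arrays labelled S1pr2-/- minus the mean of the wild-type arrays. The targeted gene went against its label. On the S1pr2 probe the wild-type arrays read -0.13 and -0.16, whereas those labelled S1pr2-/- read 2.67 and 2.54. This log2 difference was 2.75 (SE 0.072, adjusted p = 0.333, limma with Benjamini-Hochberg adjustment). It is not known here whether this probe falls inside the disrupted stretch of the gene, and all directions below follow the labels. Between 67.5% and 72.1% of the probes were well above background on each array, and all 40 members were well above background on all 4 arrays. Markers of alveolar macrophages were looked up because of the label. All 11 genes of the alveolar macrophage list, Marco, Siglecf and Chil3 among them, were well above background on all 4 arrays. Their summed signal was 857 and 953 times the 75th percentile in wild-type cells and 822 and 926 times in cells labelled S1pr2-/-. In the B cell, T cell, NK cell, neutrophil and epithelial lists, 0 genes with a probe failed the background test on every array. Passing that test therefore does not tell these cell types apart.

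The unfolded protein response is the program by which a cell adjusts its ER to the load of proteins that have to be folded there. The kinase Eif2ak3 (PERK), the endonuclease and kinase Ern1 (IRE1) and the membrane-bound factor Atf6 sense unfolded proteins in the lumen, and they act through translation of Atf4, splicing of Xbp1 mRNA and cleavage of Atf6 itself, so that mRNA level alone does not show how active a sensor is. Chaperones of the cytosol are instead controlled by heat shock factors, and macrophages, which secrete and ingest proteins, rely on both systems.

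The promoter letters through which these programs are known to be read were looked up first, because the members differ in them. RefSeq windows around the start site (GRCm38.p6) were at hand for 35 of the 41 members, that is for all except Manf, Atf6, Hyou1, Hsp90aa1, Derl1 and Hspa8. The ER stress element was searched on both strands as CCAAT, 9 bases of any kind and CCACG. It was found in 9 of the 35 windows (25.7%), against 39 of 32851 windows in the whole table (0.119%). The 6 stretches below show it in the members with large differences (Hspa5, Creld2, Derl3, Pdia6) and in 2 members whose levels hardly differed between the genotypes (Calr, Canx). Each is printed along the strand of its gene, and capitals mark the element.
Hspa5, chr2:34772000-34772068, GRCm38.p6, plus strand: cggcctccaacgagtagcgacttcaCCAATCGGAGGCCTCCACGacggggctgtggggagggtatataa
Creld2, chr15:88819495-88819563, GRCm38.p6, plus strand: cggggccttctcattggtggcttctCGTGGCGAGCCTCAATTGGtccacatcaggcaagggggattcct
Derl3, chr10:75893217-75893285, GRCm38.p6, plus strand: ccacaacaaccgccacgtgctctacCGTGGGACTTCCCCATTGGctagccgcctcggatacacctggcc
Pdia6, chr12:17266466-17266534, GRCm38.p6, plus strand: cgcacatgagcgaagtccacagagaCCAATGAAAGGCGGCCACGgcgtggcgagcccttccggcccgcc
Calr, chr8:84847050-84847118, GRCm38.p6, minus strand: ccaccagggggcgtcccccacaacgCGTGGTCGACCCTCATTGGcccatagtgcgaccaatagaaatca
Canx, chr11:50325775-50325843, GRCm38.p6, minus strand: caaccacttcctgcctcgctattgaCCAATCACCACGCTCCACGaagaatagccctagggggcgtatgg
The element reads CCAAT first in Hspa5, Pdia6 and Canx and on the opposite strand in Creld2, Derl3 and Calr. Hsp90b1 held it at 2 places, and Dnajc3 and Syvn1 held it as well. The core TGACGTG, which Xbp1 and Atf6 read, was found on either strand in the Hspa5 window and in no other member, and in 2.01% of all windows. The composite core of Atf4, TGATGNAA on either strand, was found in Asns, Chac1, Herpud1 and Trib3 and in 3.97% of all windows, and the core of the heat shock element, GAANNTTC, in Hspa1a, Hspa1b, Hspb1, Hspd1, Hspe1, Hsph1 and Asns and in 7.86%. Asns, whose Atf4 core overlaps its heat shock core, is shown for its large difference, the near-identical pair Hspa1a and Hspa1b because only Hspa1a had a probe, and Hspb1 as the cytosolic gene with the lowest log2 difference. Capitals mark the Atf4 core in Asns and the heat shock core in the others.
Asns, chr6:7693210-7693257, GRCm38.p6, minus strand: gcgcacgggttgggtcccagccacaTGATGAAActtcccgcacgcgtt
Hspa1a, chr17:34972228-34972285, GRCm38.p6, minus strand: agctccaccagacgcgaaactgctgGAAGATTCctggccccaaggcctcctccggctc
Hspa1b, chr17:34959310-34959367, GRCm38.p6, minus strand: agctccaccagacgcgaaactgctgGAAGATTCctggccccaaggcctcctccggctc
Hspb1, chr5:135887777-135887854, GRCm38.p6, plus strand: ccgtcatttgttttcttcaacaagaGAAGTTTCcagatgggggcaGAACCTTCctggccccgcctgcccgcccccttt
The printed stretches of Hspa1a and Hspa1b are the same, and their windows were identical at 247 of 250 bases upstream of the start site. These neighboring genes encode nearly the same inducible Hsp70, so the Hspa1a probe may also report Hspa1b. A match is a description of letters and not a proof of a site.

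Across the members, most values on the arrays labelled S1pr2-/- were slightly lower than on the wild-type arrays. Of the 40 members, 33 had a log2 difference below 0 and 7 above 0, where the median over all probes was -0.0030. The median of the members was -0.18, with a range from -0.60 to 0.29, and 0 members were past 2-fold. On both arrays labelled S1pr2-/- the signal lay below both wild-type arrays for 27 of 40 members (67.5%), against 21.8% of all 27161 probes tested and 23.8% of the 6512 genes whose mean signal exceeded the 75th percentile. Above both wild-type arrays lay 2 members, Atf6 and Canx, and the arrays of the genotypes overlapped for 11. The shares of all probes above both or overlapping were not counted, so these counts have no reference. At an unadjusted p under 0.05 from limma, 15 of 40 members were lower (37.5%), against 5.59% of all probes and 4.48% of those bright genes, and 0 members were higher, against 3.99% of all probes. After Benjamini-Hochberg adjustment over all probes limma called 0 members, with adjusted p between 0.509 and 0.991, and it called 0% of all probes. Thus no member passed the adjusted test, and the values below are descriptions of these 4 arrays. By the t-test of the methods, 11 members were lower before adjustment, with 1066 of all probes, and 0 after it. In a mixed BALF sample, fewer cells of a type and less RNA per cell cannot be told apart.

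The count of members lower at an unadjusted p rested on having both arrays of each genotype. It was 7 without wild-type replicate 1, 7 without wild-type replicate 2, 9 without S1pr2-/- replicate 1 and 5 without S1pr2-/- replicate 2, where 1363, 1638, 1045 and 1043 of all 27161 probes were lower in place of 1518. With the normexp background correction it was 3, where the count over all probes was 127. The replicate number as a block left 8 lower and 1 higher, with 1456 and 975 over all probes. The split of all probes depended on the scaling too, with 1518 lower and 1083 higher as reported, 1050 and 1709 after quantile normalization, and 1436 and 1651 with the percentile taken over probes detected on all arrays. With 2 arrays per genotype, an exact two-sided permutation test of a single value cannot give a p below 0.333.

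**Figure D1:**
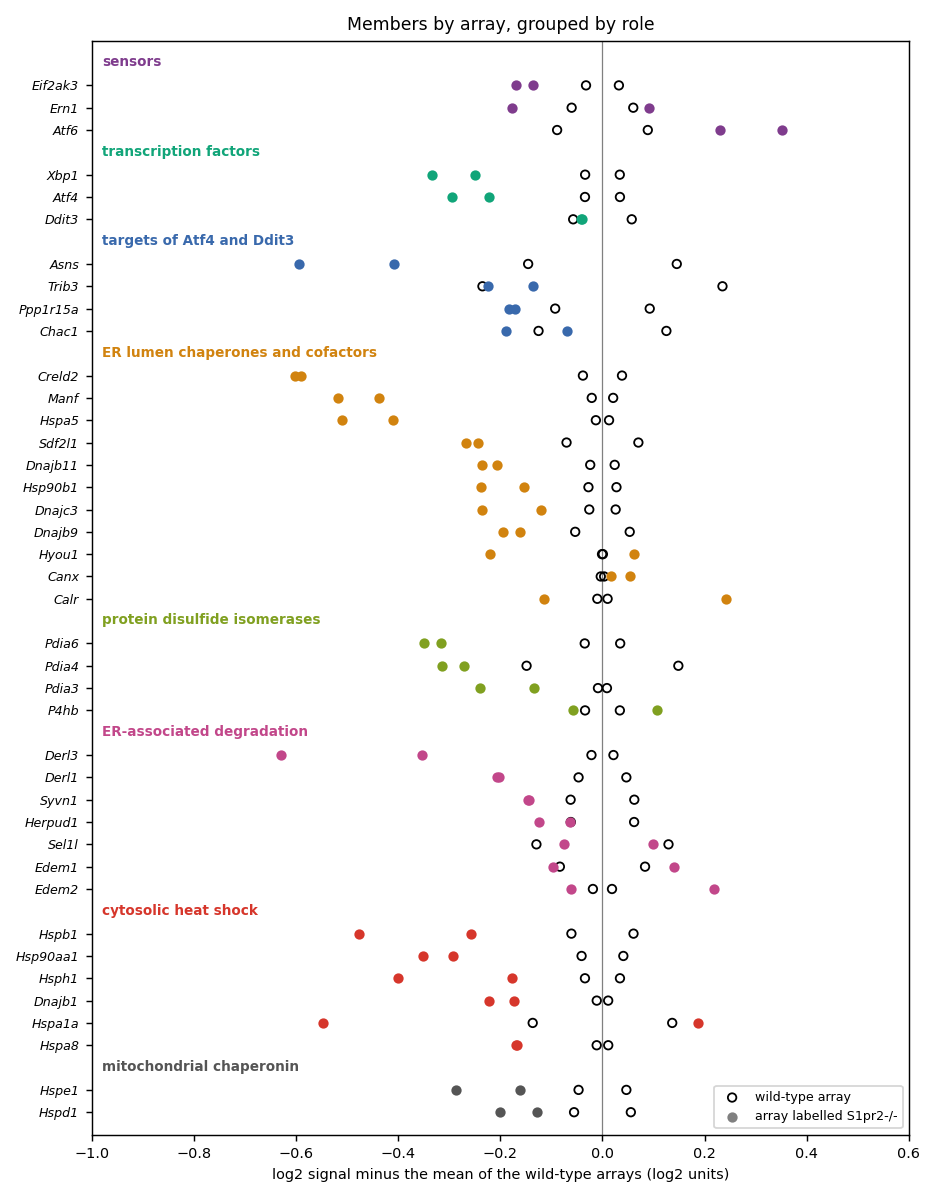
The 40 members with a probe, 1 row each and grouped by role, as log2 signal minus the mean of the wild-type arrays (x axis, log2 units). Open circles are the 2 wild-type arrays and filled circles the 2 arrays labelled S1pr2-/-. The filled circles of Creld2, Manf and Hspa5 sit far to the left of the open ones, whereas those of Calr, Hyou1 and Hspa1a fall on both sides of 0.

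Of the 3 sensors, none was lower or higher at an unadjusted p under 0.05 (0 of 3), and their median log2 difference was -0.04. Over all probes, 5.59% were lower and 3.99% higher at this p. Ern1 mRNA, which encodes the sensor that splices Xbp1, read -1.57 and -1.69 on the wild-type arrays against -1.54 and -1.81 on those labelled S1pr2-/-. Arrays of the same genotype were farther apart than the means of the genotypes (log2 difference -0.04, SE 0.13, unadjusted p = 0.756). Eif2ak3, which encodes the kinase that slows translation by phosphorylating eIF2alpha, read 0.88 and 0.85 on the arrays labelled S1pr2-/- and 1.05 and 0.99 on the wild-type ones. Both arrays labelled S1pr2-/- lay slightly below both wild-type arrays (log2 difference -0.15, SE 0.060, unadjusted p = 0.0788). Atf6 had the highest log2 difference of all members and stood above 0, with -1.91 and -1.73 in wild-type cells and -1.59 and -1.47 in cells labelled S1pr2-/-. Both of the latter were above both wild-type arrays (log2 difference 0.29, SE 0.099, unadjusted p = 0.0548). The unadjusted p of Atf6 was under 0.05 in only 2 of the 12 alternatives that kept all 4 arrays. By limma it was 0.0469 after quantile normalization and 0.0324 with the replicate number as a block. It was 0.0890 by limma after the normexp correction and 0.113 by the t-test of the methods.

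Of the 3 transcription factors downstream of the sensors, 2 had a lower level at an unadjusted p under 0.05, and the median was -0.26. The share of all probes lower at this p was 5.59%. Xbp1, the factor that drives many ER chaperone and secretory genes once its mRNA is spliced, read 5.81 and 5.74 in wild-type cells and 5.53 and 5.44 in cells labelled S1pr2-/-. Its wild-type arrays were both higher (log2 difference -0.29, SE 0.068, unadjusted p = 0.0197), and the probe signal does not tell spliced from unspliced mRNA here. Atf4, the factor of the PERK branch, read 5.23 and 5.16 on the wild-type arrays against 4.90 and 4.97 on those labelled S1pr2-/- on its brightest probe. Here too the arrays did not overlap (log2 difference -0.26, SE 0.066, unadjusted p = 0.0255), whereas a dimmer Atf4 probe gave a log2 difference of -0.07 with overlapping arrays. Ddit3 (CHOP), the factor linked to cell death under lasting ER stress, read -0.64 and -0.64 on the arrays labelled S1pr2-/- and -0.65 and -0.54 on the wild-type ones. All 4 of its values lay within a narrow range and overlapped (log2 difference -0.04, SE 0.070, unadjusted p = 0.590).

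Among the 4 targets of Atf4 and Ddit3, Asns was the one with a lower level at an unadjusted p under 0.05. The median of the group was -0.18, and 5.59% of all probes were lower at this p. Asns encodes asparagine synthetase, a standard target of the amino acid response. It read 0.08 and 0.37 in wild-type cells and -0.37 and -0.19 in cells labelled S1pr2-/-, so that the wild-type arrays themselves differed by more than those of most members. Both arrays labelled S1pr2-/- were nevertheless below 0 and below both wild-type arrays (log2 difference -0.50, SE 0.14, unadjusted p = 0.0353). Ppp1r15a, the phosphatase subunit that reverses PERK signaling, read 0.98 and 1.16 on the wild-type arrays against 0.88 and 0.90 on those labelled S1pr2-/- without overlap (log2 difference -0.18, SE 0.090, unadjusted p = 0.136). Trib3, a pseudokinase that restrains Atf4, read 0.11 and 0.02 on the arrays labelled S1pr2-/- and 0.01 and 0.48 on the wild-type ones. One wild-type array was the highest and the other the lowest of the 4 (log2 difference -0.18, SE 0.19, unadjusted p = 0.418). Chac1, a glutathione-degrading enzyme and a sensitive Atf4 target, read -1.04 and -0.79 in wild-type cells and -0.99 and -1.11 in cells labelled S1pr2-/- and also overlapped (log2 difference -0.13, SE 0.12, unadjusted p = 0.360).

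The chaperones of the ER lumen and their cofactors held 3 of the 5 lowest log2 differences of all members. Of 11 genes, 5 had a lower level at an unadjusted p under 0.05, against 5.59% of all probes, and the median was -0.20. For 8 genes both arrays labelled S1pr2-/- lay below both wild-type arrays, against 21.8% of all probes. Hspa5 (BiP), the central Hsp70 of the ER that also holds the sensors inactive, read 5.82 and 5.85 on the wild-type arrays against 5.42 and 5.32 on those labelled S1pr2-/-. Its wild-type values were nearly the same and both other values were clearly lower (log2 difference -0.46, SE 0.067, unadjusted p = 0.00470, 0.727-fold). Creld2, a secreted and ER-resident cofactor of disulfide isomerases, had the lowest log2 difference of all members. It read 3.32 and 3.31 on the arrays labelled S1pr2-/- and 3.95 and 3.87 on the wild-type ones, with a gap between the genotypes many times that between arrays of a genotype (log2 difference -0.60, SE 0.061, unadjusted p = 0.00159, 0.662-fold). Manf, a small ER protein that binds Hspa5 and is secreted under stress, read 2.49 and 2.45 in wild-type cells and 2.03 and 1.95 in cells labelled S1pr2-/-. The order was the same as for Creld2, with no overlap (log2 difference -0.48, SE 0.064, unadjusted p = 0.00366, 0.718-fold). Leaving out any single array kept the unadjusted p of these 3 genes under 0.05, with log2 differences from -0.51 to -0.41 for Hspa5, from -0.63 to -0.56 for Creld2 and from -0.52 to -0.44 for Manf.

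Other lumenal cofactors had smaller differences. Sdf2l1, which keeps substrates of Hspa5 from aggregating, read 2.64 and 2.50 on the wild-type arrays against 2.30 and 2.33 on those labelled S1pr2-/-. The lower wild-type array was still above both others (log2 difference -0.26, SE 0.077, unadjusted p = 0.0399). Dnajb11, a J-domain partner of Hspa5, read 3.13 and 3.10 on the arrays labelled S1pr2-/- and 3.36 and 3.32 on the wild-type ones with the same order (log2 difference -0.22, SE 0.058, unadjusted p = 0.0269). Hsp90b1 (Grp94), the Hsp90 of the ER, read 5.25 and 5.30 in wild-type cells and 5.12 and 5.04 in cells labelled S1pr2-/-. It too had no overlap, but its p was just above 0.05 (log2 difference -0.20, SE 0.066, unadjusted p = 0.0542). The J-domain genes Dnajb9 and Dnajc3 had log2 differences of -0.18 each and no overlap, and a dimmer probe of Dnajb9 gave -0.32. Hyou1, a large ER Hsp70-like protein, read -3.37 and -3.37 on the wild-type arrays against -3.59 and -3.31 on those labelled S1pr2-/- and its arrays overlapped (log2 difference -0.08, SE 0.12, unadjusted p = 0.559).

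The lectin chaperones, which retain glycoproteins until they are folded, had differences near 0. Calr (calreticulin), which also stores calcium in the lumen, read 4.13 and 4.49 on the arrays labelled S1pr2-/- and 4.25 and 4.23 on the wild-type ones. The arrays labelled S1pr2-/- lay on either side of the wild-type ones (log2 difference 0.06, SE 0.15, unadjusted p = 0.694). Canx (calnexin), its membrane-bound counterpart, read 4.56 and 4.57 in wild-type cells and 4.62 and 4.58 in cells labelled S1pr2-/-. All 4 values were close together, with those labelled S1pr2-/- marginally higher (log2 difference 0.04, SE 0.056, unadjusted p = 0.567). Both genes carry the ER stress element printed above, as do Hspa5 and Creld2. Over the 9 members with this element, 4 had a lower level at an unadjusted p under 0.05, with a median of -0.20. Over the 25 tested members whose window lacked it, 7 were lower and the median was -0.18. The share of all probes lower at this p was 5.59%. The medians of members with and without the ER stress element lay close together. For the heat shock core the median was -0.26 over 6 tested members with it and -0.18 over 28 without. For the Atf4 core it was -0.15 over 4 with it and -0.18 over 30 without.

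Of the 4 protein disulfide isomerases, which form and rearrange disulfide bonds, 1 was lower at an unadjusted p under 0.05, against 5.59% of all probes. This was Pdia6. It read 5.68 and 5.61 on the wild-type arrays against 5.33 and 5.30 on those labelled S1pr2-/-. The wild-type arrays were both higher (log2 difference -0.33, SE 0.061, unadjusted p = 0.00963), and a dimmer probe of the gene gave -0.20 with an unadjusted p of 0.0338. Pdia3, a partner of Calr and Canx, had a log2 difference of -0.19 and Pdia4 one of -0.29, both without overlap and with unadjusted p of 0.0630 and 0.10. P4hb, the archetype of the family, read 3.13 and 3.29 on the arrays labelled S1pr2-/- and 3.22 and 3.15 on the wild-type ones. Its arrays overlapped and its mean was about level (log2 difference 0.02, SE 0.087, unadjusted p = 0.800).

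ER-associated degradation, which returns misfolded proteins to the cytosol for the proteasome, had members with low values and members near 0. Of the 7, 2 were lower at an unadjusted p under 0.05, against 5.59% of all probes, and the median was -0.09. For 4 of them both arrays labelled S1pr2-/- lay below both wild-type arrays, against 21.8% of all probes. Derl3, a channel protein best known from secretory cells, read -1.53 and -1.57 in wild-type cells and -2.18 and -1.90 in cells labelled S1pr2-/-. The wild-type arrays were nearly equal and both others were lower (log2 difference -0.49, SE 0.12, unadjusted p = 0.0231, 0.711-fold). Under the normexp correction the log2 difference was -0.18 with an unadjusted p of 0.467. Derl1, a related channel protein, read 3.28 and 3.18 on the wild-type arrays against 3.03 and 3.02 on those labelled S1pr2-/- on its brightest probe, without overlap (log2 difference -0.21, SE 0.065, unadjusted p = 0.0447). A dimmer Derl1 probe went the other way, with a log2 difference of 0.10 and an unadjusted p of 0.232, so the direction of Derl1 is uncertain. The ubiquitin ligase Syvn1 had a difference of -0.15 without overlap (unadjusted p = 0.130). Herpud1, a scaffold of the degradation complex, had one of -0.09 (unadjusted p = 0.296). Its genotypes were barely apart, with 2.269 on the higher array labelled S1pr2-/- and 2.271 on the lower wild-type array. Sel1l, the adaptor of Syvn1, was at 0.01 and the mannosidase-like Edem1 at 0.02, both with overlapping arrays. Edem2, which trims the glycans of misfolded proteins, read -1.60 and -1.32 on the arrays labelled S1pr2-/- and -1.56 and -1.52 on the wild-type ones and overlapped as well (log2 difference 0.08, SE 0.12, unadjusted p = 0.566).

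**Figure D2:**
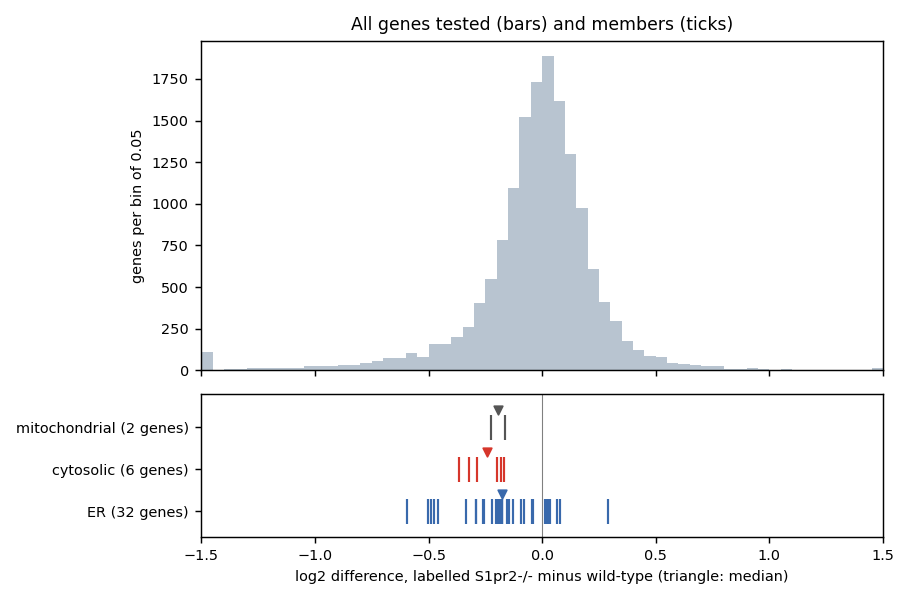
Log2 difference between the genotypes (x axis, arrays labelled S1pr2-/- minus wild-type arrays) for all 15414 named genes tested (bars, genes per bin) and for the members (ticks, 1 per gene, by compartment; triangles are medians). The 116 genes beyond the plotted range are counted in the end bins. The medians of the 32 ER, 6 cytosolic and 2 mitochondrial members lie at -0.18, -0.24 and -0.19, left of the peak of all genes.

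All 6 cytosolic heat shock genes with a probe had a log2 difference below 0. Of these, 4 were lower at an unadjusted p under 0.05, against 5.59% of all probes, and the median was -0.24. For 5 of them both arrays labelled S1pr2-/- lay below both wild-type arrays, against 21.8% of all probes. Hspa1a, the stress-inducible Hsp70 and the usual readout of a heat shock response, read -2.37 and -2.10 in wild-type cells and -2.78 and -2.05 in cells labelled S1pr2-/-. Its arrays overlapped widely, and 1 of the arrays labelled S1pr2-/- was the highest of the 4 and the other the lowest (log2 difference -0.18, SE 0.31, unadjusted p = 0.601). Hspa8, the constitutive Hsp70, read 6.45 and 6.48 on the wild-type arrays against 6.30 and 6.29 on those labelled S1pr2-/-. Replicates were almost equal and the genotypes did not overlap (log2 difference -0.17, SE 0.054, unadjusted p = 0.0473), whereas 2 dimmer Hspa8 probes overlapped, at -0.12 and -0.11. After quantile normalization the reported probe was at -0.086 with an unadjusted p of 0.221. Hsp90aa1, the inducible cytosolic Hsp90, read 3.39 and 3.34 on the arrays labelled S1pr2-/- and 3.73 and 3.65 on the wild-type ones with both arrays labelled S1pr2-/- lower (log2 difference -0.32, SE 0.066, unadjusted p = 0.0136).

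The cochaperones followed the same order. Dnajb1, the J-domain partner of cytosolic Hsp70, read 3.23 and 3.26 in wild-type cells and 3.07 and 3.02 in cells labelled S1pr2-/-. Both wild-type values were higher (log2 difference -0.20, SE 0.057, unadjusted p = 0.0360). Hsph1 (Hsp110), a nucleotide exchange factor and disaggregase, read 1.46 and 1.39 on the wild-type arrays against 1.24 and 1.02 on those labelled S1pr2-/-, without overlap but with a wider spread on the arrays labelled S1pr2-/- (log2 difference -0.29, SE 0.11, unadjusted p = 0.0647), and its other probe gave -0.31. Hspb1, a small heat shock protein that binds unfolded clients without ATP, read 2.11 and 1.89 on the arrays labelled S1pr2-/- and 2.30 and 2.42 on the wild-type ones. Its wild-type arrays were both higher (log2 difference -0.37, SE 0.11, unadjusted p = 0.0401).

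The mitochondrial chaperonin is encoded by 2 genes that lie head to head on chromosome 1. Hspd1 (Hsp60), which forms the folding chamber, read 3.89 and 3.78 in wild-type cells and 3.71 and 3.64 in cells labelled S1pr2-/-. Hspe1 (Hsp10), its lid, read 5.08 and 4.98 on the wild-type arrays against 4.87 and 4.74 on those labelled S1pr2-/-. Both had lower values on both arrays labelled S1pr2-/-, and neither had an unadjusted p under 0.05 on the reported probe (log2 difference -0.16, SE 0.074, unadjusted p = 0.107 and log2 difference -0.22, SE 0.081, unadjusted p = 0.0627). The other 2 probes of Hspe1 gave -0.21 and -0.19 with unadjusted p of 0.0377 and 0.0372.

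**Figure D3:**
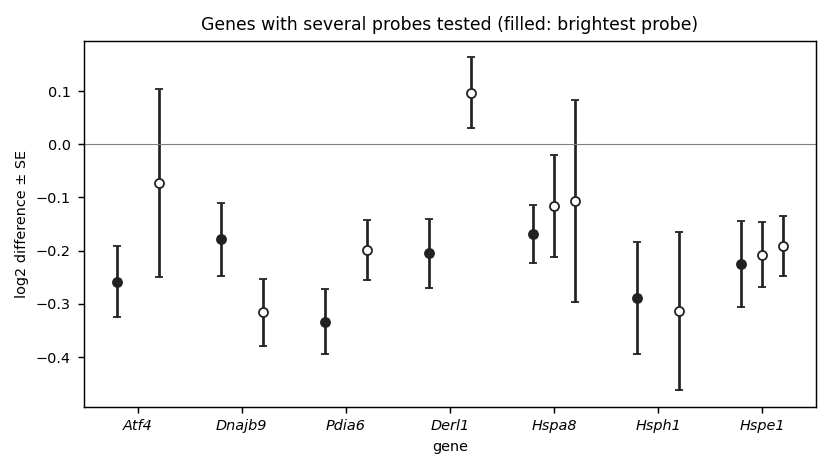
The 7 members with more than 1 tested probe, as log2 difference (y axis, arrays labelled S1pr2-/- minus wild-type arrays) with its SE from limma as bars. Filled circles are the brightest probe of each gene, which is the one reported, and open circles the others. All probes lie below 0 except the dimmer Derl1 probe at 0.10.

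The ER arms were compared with the cytosolic genes array by array. Relative to the wild-type mean, the median of the ER members stood at 0.02 and -0.02 on the wild-type arrays and at -0.15 and -0.20 on the arrays labelled S1pr2-/-. The corresponding medians of the cytosolic members were -0.01 and 0.01, then -0.22 and -0.29. Both compartments were thus lower on both arrays, and the median log2 difference of the ER members was higher than that of the cytosolic ones by 0.065, where the SD of this gap between arrays of a genotype was 0.034. Members are not replicates, so the gap has no test. The median over all probes was -0.0030 and that over the bright genes -0.0027. Of the 15414 genes tested, 2815 had a log2 difference below the ER median and 2022 below the cytosolic median. Between arrays of the same genotype, the second wild-type array was below the first for 22 of 40 members, and the second array labelled S1pr2-/- was below the first for 26 of 40.

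**Figure D4:**
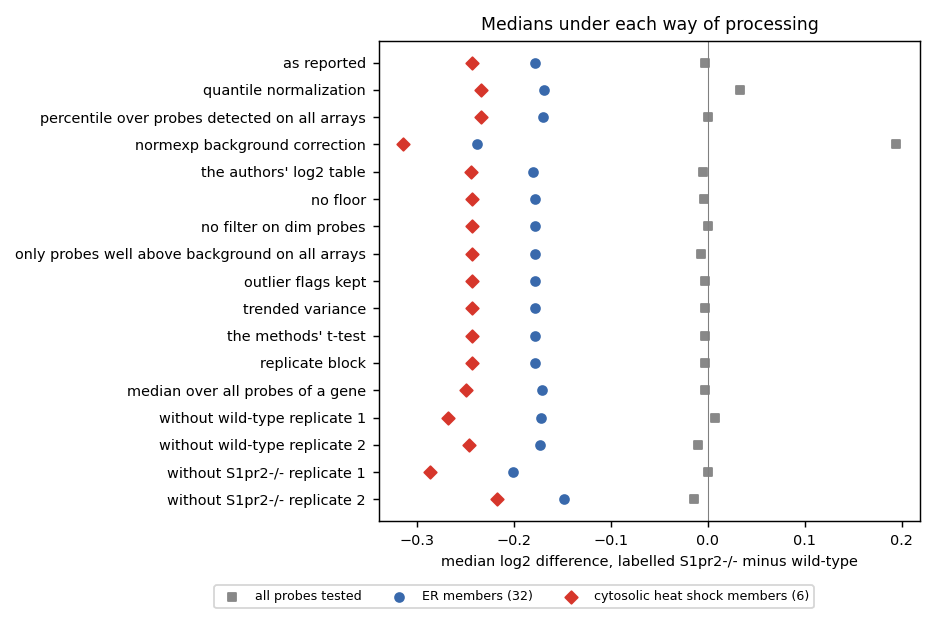
Median log2 difference (x axis, arrays labelled S1pr2-/- minus wild-type arrays) of the ER members, the cytosolic heat shock members and all probes tested, under each way of processing (rows). Both member medians stay below 0 and below that of all probes in every row, and normexp background correction moves all probes to 0.19, the ER median to -0.24 and the cytosolic median to -0.31.

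Other genes of the pathway were counted over whole lists. Of all probes tested, 5.59% were lower and 3.99% higher at an unadjusted p under 0.05. In the Atf4 program for amino acids and stress, 1 of 25 tested genes was lower (4%) and 0 were higher. This lower count was near the share of all probes, and the median was -0.02. The lower gene was Ddit4, an inhibitor of mTORC1, at -0.81 (SE 0.058, unadjusted p = 0.000492). Among 18 genes of sensor signaling and related kinases, 4 were lower and 2 higher, with a median of 0.07. The eIF2alpha kinases Eif2ak4 (GCN2) and Eif2ak2 (PKR) were at -0.28 and -0.18 and the IRE1 adaptor Traf2 at -0.29, whereas Creb3l1, a relative of Atf6, was at 0.34 and Mbtps2, the protease that frees Atf6 from its membrane anchor, at 0.32. The fourth lower gene, Eif2s1, which encodes eIF2alpha itself, was at -0.21 and was named after its value was seen.

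Of 50 other genes of ER folding, oxidation, glycosylation and translocation, 6 were lower and 2 higher, against 5.59% and 3.99% of all probes. Their median was -0.06. The proline isomerase gene Fkbp11 was at the floor of 0.01 on both arrays labelled S1pr2-/- and so at least 1.62-fold lower, from the wild-type mean over the floor. The receptor for escaped ER proteins Kdelr3 was at -0.54 and the disulfide isomerase Pdia5 at -0.35, whereas Kdelr1 and the Toll-like receptor chaperone Cnpy3 were higher, at 0.24 and 0.19. None of 18 further degradation genes was lower or higher (0 and 0, median -0.02). Of 38 other cytosolic chaperones and cochaperones, 4 were lower and 1 higher, with a median of -0.06. The Hsp90 cochaperone Cdc37 was at -0.40, the Hsp110 relative Hspa4l at -0.25 and the J-domain gene Dnaja1 at -0.28, with the testis-enriched Hspa2 at 0.21 on the higher side. The fourth, Serpinh1, in fact a collagen chaperone of the ER, was at -0.52 and was also chosen after its value was seen. Among 10 other mitochondrial chaperones and proteases, 0 were lower and 1 was higher, Yme1l1 at 0.20, with a median of 0.04.

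Immediate early genes, which respond to handling of cells as well as to stimuli, were mostly below 0 (11 of 14). The median over all probes was -0.0030. Of the 14, 3 had a lower level at an unadjusted p under 0.05 and 0 a higher one, with a median of -0.15. Over all probes the shares were 5.59% and 3.99%. Ier3 was at -0.97, Egr1 at -0.75 and Klf6 at -0.25. Their part in the values of the chaperones was not tested.

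Markers of cells other than macrophages also differed between the arrays. For the counts that follow, 5.59% of all probes were lower and 3.99% higher at an unadjusted p under 0.05. The eosinophil list was lower for 6 of its 7 tested genes at an unadjusted p under 0.05, with a median log2 difference of -4.47 and a summed signal of 9.75 and 26.6 times the 75th percentile on the wild-type arrays against 2.65 and 4.06 times on the arrays labelled S1pr2-/-. Of the neutrophil list 3 of 10 were lower, with summed signals from 68.7 to 75.1 on the arrays labelled S1pr2-/- and from 90.9 to 102 on the wild-type arrays, and of the T cell list 2 of 7, with 11.9 to 16.2 and 18.3 to 19.7. Of the 10 tested genes of the monocyte-derived macrophage list, 0 were lower and 0 higher at this p. Its summed signals were 201 and 118 in wild-type cells and 224 and 162 in cells labelled S1pr2-/-. Plasma cells, which carry much Xbp1, Creld2 and Derl3, were read from 7 genes. None of the 4 arrays had their defining gene Tnfrsf17 well above background. The summed signal of the list was from 1.39 to 1.61 on the arrays labelled S1pr2-/- and from 1.72 to 1.95 on the wild-type arrays. Its 6 tested genes went both ways, with log2 differences from -1.15 to 2.13, 4 below 0 and 2 above. At an unadjusted p under 0.05, 1 of the 6, Igj, was higher on the arrays labelled S1pr2-/-. Lists of B cells and NK cells had 0 genes lower of 7 and 6, those of dendritic and epithelial cells 1 of 6 and 1 of 8, that of erythroid cells 0 of 3, and that of mast cells and basophils 1 of the 1 tested, with Mcpt8, Fcer1a, Ms4a2 and Gata2 not well above background anywhere. The part of these cells in the differences between the genotypes was not tested.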

How the data were processed

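For every array the authors deposited scanner output, with the intensity of each spot corrected for local background by Feature Extraction (version 11.0.1.1 per the file headers, 10.7.3.1 in the submitters' processing notes), and a table of their normalized log2 values. After removal of a constant per array, 100% of 39359 probes of that deposited log2 table lay within 0.01 of the scaled scanner values, centred on the wild-type mean, and it was used as an alternative only.

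The processed intensity was divided by the 75th percentile of the array (between 2489 and 2817 units), values under 0.01 were set to 0.01, log2 was taken, outlier spots (115 to 273 per array) were left out and spots of a probe were averaged. Of 39429 probes, 69.6% were named through accessions in a RefSeq table of GRCm38.p6, and 27161, which had a value on each of the 4 arrays and passed the scanner software's background test in both replicates of at least 1 genotype, were tested with limma 3.58.1 in R 4.3.3 (lmFit, eBayes, Benjamini-Hochberg). No spot was saturated (0). The methods list the minimum before the scaling and a lowess step for which 1-channel data give no reference. The arrays came from 1 slide and 1 scan, so neither was a batch. Their number limits the precision.

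The members and all lists were chosen with earlier results of these data known. Named with full values were the central sensors, factors and chaperones, members with an unadjusted p under 0.05 or a log2 difference beyond 0.5, the extremes of each role, and up to 3 genes per direction of each other list. The script was tested on simulated data. Alternatives were quantile normalization, a percentile over detected probes, normexp correction (offset 50, on median signals because mean signals were not used here), the authors' table, no floor, no filter, a stricter filter, kept flags, a variance trend, the replicate block, the t-test of the methods, the median over probes and each array left out. Protein sequences were not used here.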

Additional observations from a re-analysis of the deposited data

How the results depend on the processing

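The ER and cytosolic medians kept their sign under all 16 alternatives, and 0 members were called at an adjusted p under 0.05 by limma or by the methods' t-test in any of them. Of the 40 members, 28 kept the sign of their log2 difference throughout and 12 changed it at least once. Under normexp background correction 3 members were lower at an unadjusted p under 0.05 in place of 15, while over all probes 127 were lower in place of 1518, and the ER median was -0.24 and the cytosolic median -0.31; the cause was not tested. Of the members lower at an unadjusted p under 0.05 as reported, only Hspa5, Creld2 and Manf stayed under that p with normexp. Among those that did not, Derl3 was at -0.18, Derl1 at -0.32 and Hspa8 at -0.27. After quantile normalization Hspa8 at -0.086, Dnajb1 at -0.19 and Hspb1 at -0.36 were no longer under that p. By the median over probes Atf4 was at -0.17 and Derl1 at -0.054. Quantile normalization gave 1 member higher in place of 0. With each array left out in turn, the lone array being assumed to vary like the others, 5 to 9 members were lower and the cytosolic median ranged from -0.29 to -0.22, that of the ER members from -0.20 to -0.15. The signs that turned were those of Hyou1 (0.010) under quantile normalization and, under normexp, of Ern1 (0.13), Chac1 (0.00044), Hyou1 (0.48), Calr (-0.0061), Canx (-0.075), P4hb (-0.037), Sel1l (-0.058), Edem1 (-0.059) and Hspa1a (0.20). With 1 array left out, the differences ranged from -0.18 to 0.091 for Ern1, -0.12 to 0.14 for Sel1l, -0.10 to 0.016 for Ddit3, -0.41 to 0.055 for Trib3, -0.058 to 0.11 for P4hb, -0.10 to 0.14 for Edem1, -0.22 to 0.062 for Hyou1, -0.55 to 0.19 for Hspa1a, -0.11 to 0.24 for Calr and -0.062 to 0.22 for Edem2. Apart from normexp, the left-out arrays and the replicate block, the alternatives left 10 to 19 members lower. The count was 10 without the floor and with the stricter filter, where 1464 of 27161 and 1471 of 25759 probes were lower. It was 19 with the variance trend, where 1608 of 27161 probes were lower.

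The labels give both genotypes the numbers 1 and 2. Over the probes tested, deviations from the genotype mean correlated at 0.187 between wild-type replicate 1 and S1pr2-/- replicate 1. With 2 arrays per genotype, the deviations of replicate 2 mirror those of replicate 1 and add nothing. Nothing in the labels says that a number marks a shared batch or day, so the numbers were not treated as pairs. With the replicate number as a block 8 members were lower and 1, Atf6, was higher, and 0 were called after adjustment.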
